A study of Homo sapiens with 6 samples.

Results

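The genes described here make fatty acids and sterols or control the SREBP pathway that drives their transcription. They were chosen by name and role, by a rule that uses no measured value but was written with earlier results of these data known, as 35 gene names to be read from a table of read counts with 17222 gene names. Counts were used for 34 of them, namely 13 genes of fatty acid synthesis, 16 of sterol synthesis and 5 regulators of SREBP. *CYP51A1* was not analysed here. All 34 entered the comparison of 14660 genes, and the smallest count of any of them in any library was 29 reads.

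By their labels, the libraries came from H226, an established line of squamous lung carcinoma cells, transfected with a control antisense oligonucleotide (ASO_CTRL) or with ASO_LINC, a single antisense oligonucleotide against the long noncoding RNA *SWINGN* (also named LINC00565). The methods of the study name BJ fibroblasts for this RNA-seq, whereas its results text names H226, and the labels were followed. RNA was taken 48 h after transfection, and each group had 3 libraries. Because 1 oligonucleotide was used, an effect of its own sequence and an effect of *SWINGN* loss cannot be told apart. The level of *SWINGN* was not analysed here, which leaves the knockdown unchecked in these libraries. The paper reports, from RT-qPCR, that antisense oligonucleotides depleted *SWINGN* in H226 cells. It also reports RT-qPCR of some strongly changed genes in H226 cells, and in BJ cells with 3 oligonucleotides. In bulk libraries, a change in the make-up of the cells and a change of RNA per cell cannot be told apart either.

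Cells make saturated fatty acids in the cytosol from acetyl-CoA, which ACLY and ACSS2 supply, ACACA carboxylates to malonyl-CoA and FASN condenses into palmitate. Cholesterol is built from the same acetyl-CoA through mevalonate, squalene and lanosterol. Both routes are controlled by the SREBP transcription factors, which are made as membrane proteins of the endoplasmic reticulum, escorted by SCAP to the Golgi for cleavage when sterols are scarce, and held back by INSIG1 and INSIG2 when sterols are plentiful. SREBP-1, from *SREBF1*, is known mainly for fatty acid genes and SREBP-2, from *SREBF2*, mainly for sterol genes, although their targets overlap. The values below are mRNA levels, and the cleaved proteins were not measured.

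The promoters of the paired regulators *SREBF1* and *SREBF2*, and *INSIG1* and *INSIG2*, are shown because the members of each pair gave unlike values in the comparison. Each line holds the 150 bases before a RefSeq transcription start on GRCh38.p14, read along the gene's own strand, and for *INSIG2* it is 1 of 2 listed starts. Capitals mark matches to the sterol regulatory element core TCACNCCAC, the E-box CACGTG and the hypoxia response element core ACGTG, searched on both strands, where ACGTG also lies within every CACGTG.
SREBF1 (chr17:17836987-17837136, minus strand): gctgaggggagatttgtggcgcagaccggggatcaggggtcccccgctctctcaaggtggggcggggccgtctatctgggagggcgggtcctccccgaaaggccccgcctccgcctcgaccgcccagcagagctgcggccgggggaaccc
SREBF2 (chr22:41832955-41833104, plus strand): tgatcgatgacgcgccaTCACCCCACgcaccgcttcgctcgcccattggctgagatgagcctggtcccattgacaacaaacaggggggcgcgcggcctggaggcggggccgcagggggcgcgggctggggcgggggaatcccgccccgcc
INSIG1 (chr7:155297728-155297877, plus strand): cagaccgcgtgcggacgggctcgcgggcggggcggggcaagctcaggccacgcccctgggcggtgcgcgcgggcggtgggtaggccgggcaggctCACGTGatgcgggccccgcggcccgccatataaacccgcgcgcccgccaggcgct
INSIG2 (chr2:118088321-118088470, plus strand): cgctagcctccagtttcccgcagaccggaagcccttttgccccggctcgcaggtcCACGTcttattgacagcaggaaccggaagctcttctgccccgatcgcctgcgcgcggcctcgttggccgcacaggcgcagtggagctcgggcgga

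In these windows, *SREBF2* held a sterol regulatory element core that began 133 bases before the start and a CCAAT box at 106, *INSIG1* an E-box at 55, and *INSIG2* the letters ACGTG on the opposite strand at 95. *SREBF1* held none of the capitalised motifs in the window shown, and any other start of the gene was not searched. GC boxes, GGGCGG or its reverse complement, were found in all of these windows, 3 in *SREBF1*, 2 in *SREBF2*, 4 in *INSIG1* and 1 in *INSIG2*. Over the 250 bases before the start, the sterol regulatory element core was found in 0.881% of 34943 RefSeq promoters and in 2 of the 46 promoters listed for the 30 analysed genes that were matched, that of *SREBF2* and 1 of the 5 of *ACSL1*. The E-box was found in 6.32% of all promoters and in 3 of the 46 (6.52%; *ELOVL5*, *INSIG1* and *SCAP*), and ACGTG in 18.5% and in 10 of the 46 (21.7%). The CCAAT box was present in 32% of all promoters and in 25 of the 46 (54.3%), and the GC box in 42.5% and in 37 of the 46 (80.4%). Promoters of 1 gene can overlap, so they are not independent. A match of letters is a description of the sequence and not evidence of binding.

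Reads counted on genes were fewest in ASO_LINC replicate 3 (3686828) and reached 10546786 in ASO_CTRL replicate 3. ASO_LINC replicate 3 also stood apart in another way: its log2 CPM (CPM, counts per 1000000 reads on genes, after TMM scaling) minus the mean of ASO_LINC replicates 1 and 2 increased with GC content, with a Pearson r of 0.56 over 12786 genes, all points of which come from the same 3 libraries. Values without it are therefore also given below for the called genes and for part of the others. Of 9 squamous markers, counts were used for 3, and *KRT5* was present at 94.4 to 117 CPM in the control and 62.6 to 77.8 CPM in the knockdown libraries, *TRIM29* at 2.41 to 2.48 and 0.684 to 1.91 CPM, and *KRT6A* at 0 to 0.0954 and 0.856 to 2.06 CPM. None of the 3 was called by edgeR (*KRT5* log2 fold change −0.58, adjusted p = 0.0192, and *TRIM29* −0.86, adjusted p = 0.143, with *KRT6A* too low to be tested). The summed level of *KRT5* and *TRIM29*, without *KRT6A*, was 96.8 to 120 CPM in ASO_CTRL and 63.3 to 79.2 CPM in ASO_LINC. All 8 mesothelial and simple epithelial markers were present. Among them, *KRT18* gave 4974 to 5259 CPM in ASO_CTRL and 2924, 2881 and 5260 CPM in ASO_LINC replicates 1, 2 and 3. Calretinin (*CALB2*) gave 516 to 698 CPM in ASO_CTRL and 135, 119 and 208 CPM in ASO_LINC. Of the 8, *CALB2* alone was called by edgeR, with a log2 fold change of −1.97, where 2.63% of all tested genes were called lower. DESeq2 and limma-voom each called 2 of the 8 lower, against 4.32% and 3.02% of all tested genes. Without ASO_LINC replicate 3, edgeR called 6 of the 8 lower, against 7.81% of all tested genes. The summed level of the 8 markers was 12406 to 13475 CPM in ASO_CTRL and 7693, 7312 and 12756 CPM in the knockdown libraries 1, 2 and 3. The part of either marker list in the results below was not tested.

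Transfection with ASO_LINC was accompanied by changes in 4 of the 34 genes: *SREBF1*, *FASN* and *ACACA* fell and *INSIG2* rose. A gene was called when edgeR's quasi-likelihood test gave an adjusted p below 0.01 over all genes and a log2 fold change beyond 0.5, the thresholds of the study. By this rule 4.91% of all tested genes were called higher and 2.63% lower, against 1 of 34 (2.94%) and 3 of 34 (8.82%) in this group. All 3 ASO_LINC libraries lay below all 3 ASO_CTRL libraries in 14 of the 34 genes (41.2%, against 17.3% of all genes), and above them in 3 of the 34 (8.82%, against 18.7% of all genes). The count of called genes depended on single libraries, with 11 genes called when ASO_LINC replicate 3 was left out and 2, *INSIG2* and *FASN*, without ASO_LINC replicate 1. The background moved with it: without ASO_LINC replicate 3, 9.42% of all tested genes were called higher and 7.81% lower, against 3 and 8 of the 34, and without ASO_LINC replicate 1 these shares were 2.11% and 0.763%, against 1 and 1 of the 34. In the plot of changes by gene, 25 of the 34 fitted values lie below 0 and 9 above.

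**Figure D1:**
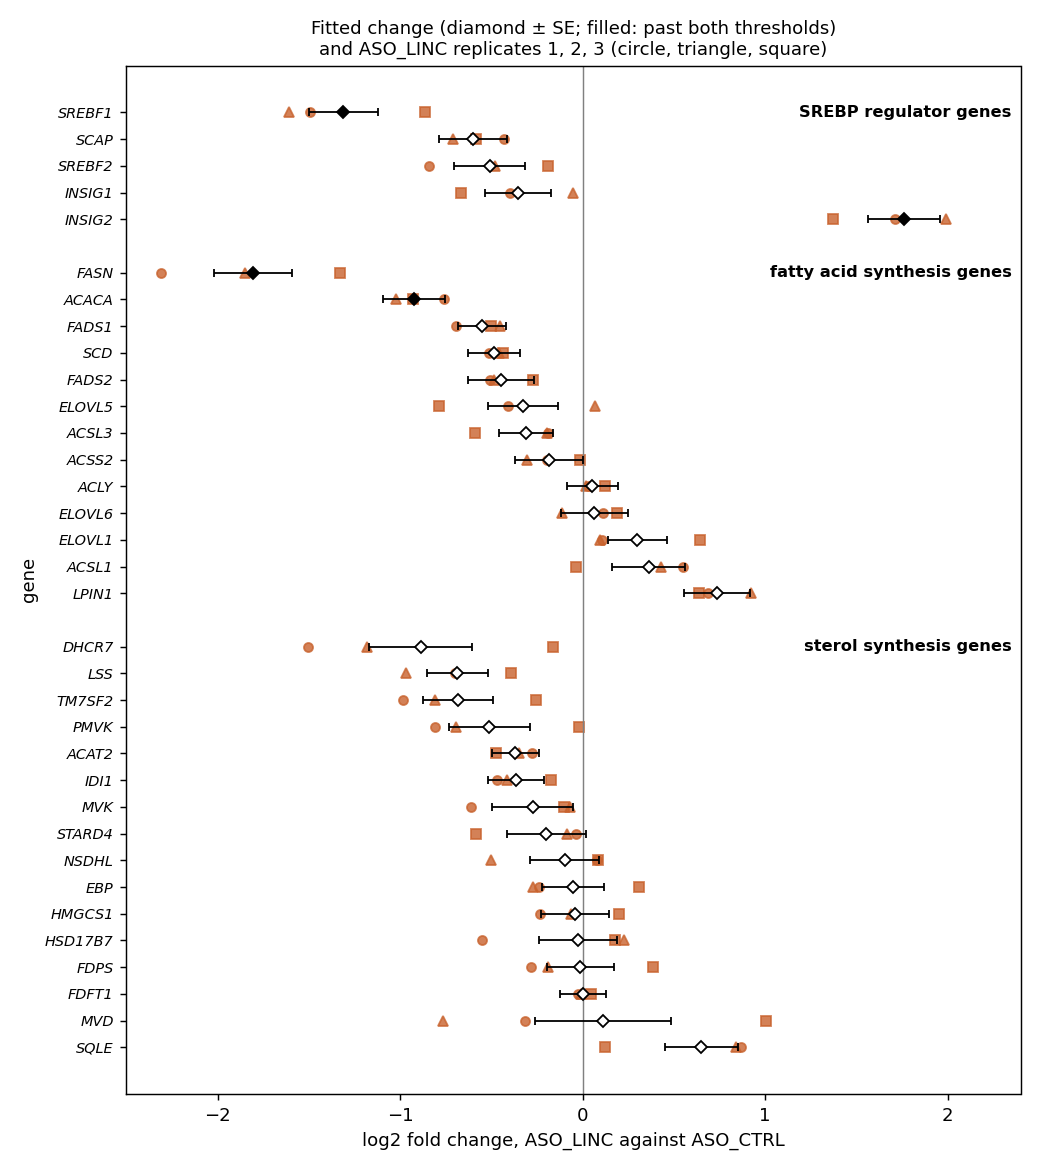
Log2 fold change of each of the 34 genes in ASO_LINC against ASO_CTRL (horizontal axis), by role. Diamonds with bars are fitted values ± SE, filled where the gene passed both thresholds, and orange circles, triangles and squares are ASO_LINC replicates 1, 2 and 3 relative to the control mean. The filled diamonds are *SREBF1* (−1.31), *FASN* (−1.81) and *ACACA* (−0.92) on the left and *INSIG2* (1.76) on the right.

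Among the regulators, the genes for SREBP-1 and for the retention protein INSIG2 moved in opposite directions. *SREBF1* (chr17:17713713-17740316 of GRCh37, minus strand) gave 76.1, 75.4 and 78.8 CPM in ASO_CTRL replicates 1, 2 and 3 and 27.0, 24.99 and 42.0 CPM in ASO_LINC. The groups did not overlap, and the highest knockdown library was replicate 3. *SREBF1* thus fell 2.48-fold, with a log2 fold change of −1.31 (SE 0.19, adjusted p = 0.00117, edgeR). Without ASO_LINC replicate 3 the log2 fold change was −1.56, and without ASO_LINC replicate 1 it was −1.17 and the call was lost (adjusted p = 0.0106, edgeR). Of the exonic bases of *SREBF1*, 6.75% overlap *RAI1* on the opposite strand, and of those of *SREBF2*, 9.08% overlap *SREBF2-AS1* on the opposite strand. The strand setting of the counting is not given in the sources used here.

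*INSIG2* (chr2:118846028-118868573 of GRCh37, plus strand, no exonic overlap with another gene) gave 8.22, 9.29 and 8.11 CPM in ASO_CTRL and 28.7, 34.7 and 22.5 CPM in ASO_LINC. Every knockdown library was above every control library. *INSIG2* rose 3.39-fold, with a log2 fold change of 1.76 (SE 0.20, adjusted p = 0.000262, edgeR) that became 1.90 without ASO_LINC replicate 3. It was called in all 6 fits that left out 1 library.

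The other retention gene, *INSIG1*, is itself a known SREBP target. It gave 31.1, 31.0 and 38.2 CPM in ASO_CTRL and 25.1, 32.0 and 20.9 CPM in ASO_LINC. The groups overlapped through ASO_LINC replicate 2, and the log2 fold change of −0.36 (SE 0.18, adjusted p = 0.205, edgeR) did not pass. Per kilobase of transcript, the ratio of *INSIG2* to *INSIG1* was 0.216, 0.245 and 0.173 in the control libraries and 0.931, 0.886 and 0.880 in the knockdown libraries. The ratio was therefore higher in every knockdown library, by 2.10 on the log2 scale (two-sided exact permutation p = 0.1, the smallest that 3 against 3 libraries can give). It was formed with the values of both genes known, so this p adds no support.

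*SREBF2*, the gene for SREBP-2, gave 21.4, 25.1 and 20.7 CPM in ASO_CTRL and 12.3, 15.9 and 19.5 CPM in ASO_LINC. The groups did not overlap, with ASO_LINC replicate 3 just below the lowest control, and the log2 fold change of −0.51 (SE 0.19, adjusted p = 0.0947, edgeR) did not pass. *SCAP*, the escort protein gene, gave 22.2, 16.3 and 22.3 CPM in ASO_CTRL and 14.8, 12.2 and 13.3 CPM in ASO_LINC. Its groups did not overlap either, and its log2 fold change was −0.60 (SE 0.19, adjusted p = 0.0475, edgeR). Neither gene passed the threshold of 0.01 without ASO_LINC replicate 3, where the log2 fold changes were −0.66 for *SREBF2* (adjusted p = 0.0120) and −0.60 for *SCAP* (adjusted p = 0.0289) in edgeR.

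Per kilobase of transcript, *SREBF1* was present at 15.7 CPM per kb in ASO_CTRL and *SREBF2* at 3.93. Their ratio was 4.13, 3.49 and 4.43 in the control libraries and 2.55, 1.83 and 2.50 in the knockdown libraries. It was lower in every knockdown library, by a log2 difference of −0.82 (two-sided exact permutation p = 0.1, the smallest possible here). This ratio too was formed with the values of both genes known, and its p adds no support.

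**Figure D2:**
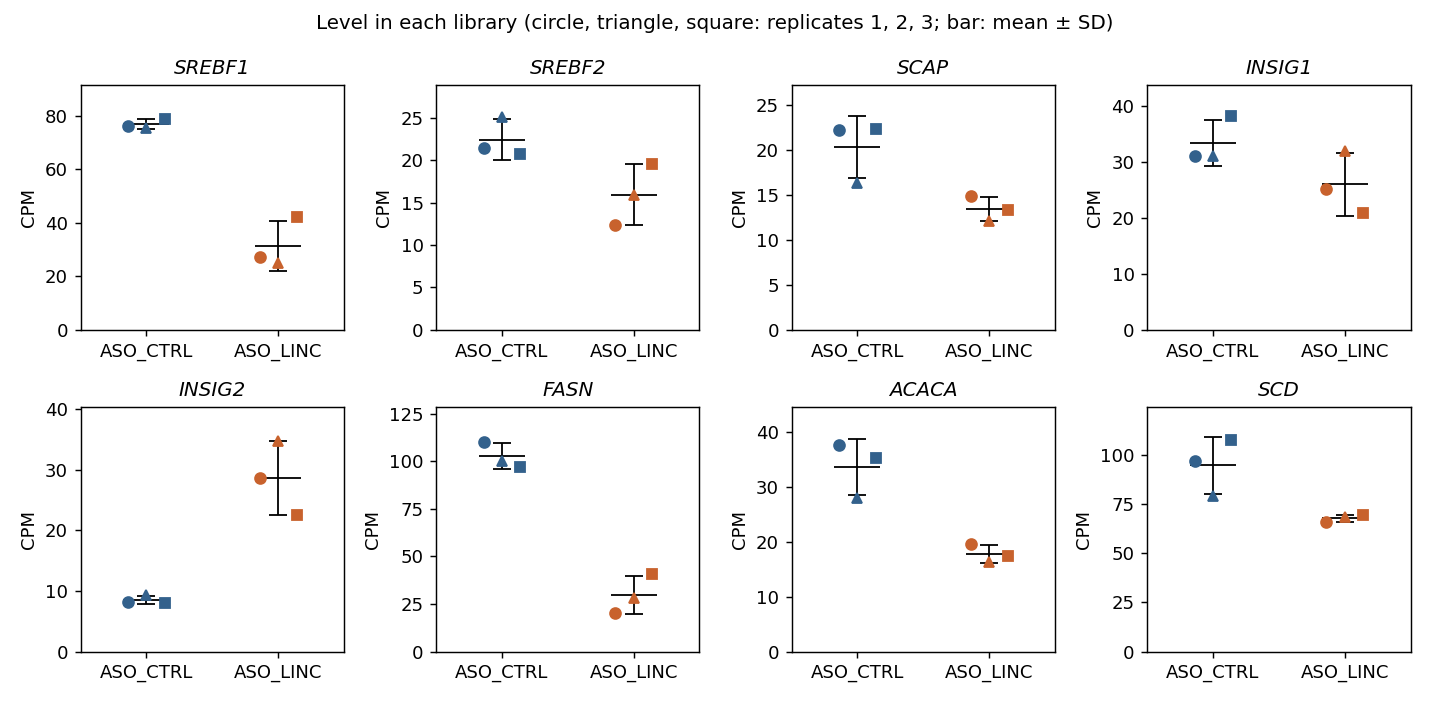
CPM in each library (vertical axes, from 0) of the 5 SREBP regulators and of *FASN*, *ACACA* and *SCD*, in ASO_CTRL and ASO_LINC, with circles, triangles and squares for replicates 1, 2 and 3 and bars for mean ± SD of 3 libraries. Among these 8 genes the groups overlap for *INSIG1*, and ASO_LINC replicate 3 is the knockdown library nearest to the controls for *SREBF1*, *SREBF2*, *INSIG2*, *FASN* and *SCD*.

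In the fatty acid route, the genes for the committed steps from acetyl-CoA to palmitate fell. *FASN*, fatty acid synthase (chr17:80036214-80056170 of GRCh37, minus strand, no exonic overlap), gave 110, 100 and 97.1 CPM in ASO_CTRL and 20.4, 28.2 and 40.7 CPM in ASO_LINC. It fell 3.50-fold, with a log2 fold change of −1.81 (SE 0.21, adjusted p = 0.000385, edgeR), the lowest of the 34 genes, and was called in all 6 fits that left out 1 library. Without ASO_LINC replicate 3 the log2 fold change was −2.08.

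*ACACA*, acetyl-CoA carboxylase alpha (chr17:35441927-35766927 of GRCh37, minus strand, no exonic overlap), gave 37.6, 27.9 and 35.3 CPM in ASO_CTRL and 19.5, 16.3 and 17.4 CPM in ASO_LINC. The 3 knockdown libraries were close together, and each was below the lowest control. *ACACA* fell 1.90-fold (log2 fold change −0.92, SE 0.17, adjusted p = 0.00472, edgeR), and the value was −0.91 without ASO_LINC replicate 3. The call was lost without ASO_CTRL replicate 1 (adjusted p = 0.0255), ASO_CTRL replicate 3 (0.0319), ASO_LINC replicate 1 (0.0179) or ASO_LINC replicate 2 (0.0235), all from edgeR, with log2 fold changes from −1.03 to −0.84 over the 6 fits that left out 1 library.

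The enzymes that supply acetyl-CoA gave other values. *ACLY*, ATP citrate lyase, had a log2 fold change of 0.05, and *ACSS2*, which activates acetate, had one of −0.18. The libraries of the groups overlapped in both genes and neither passed.

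Desaturases introduce double bonds into fatty acids, *SCD* into saturated chains such as those made from palmitate, and *FADS1* and *FADS2* mainly into polyunsaturated chains of dietary origin. *FADS1*, the delta-5 desaturase, gave 123.6, 144 and 140 CPM in ASO_CTRL and 83.9, 99.1 and 95.7 CPM in ASO_LINC, with a log2 fold change of −0.55 (SE 0.13, adjusted p = 0.0162, edgeR). *SCD*, stearoyl-CoA desaturase, gave 97.0, 79.3 and 107.7 CPM in ASO_CTRL and 65.7, 68.3 and 69.4 CPM in ASO_LINC, with a log2 fold change of −0.48 (SE 0.14, adjusted p = 0.0399, edgeR). All knockdown libraries were below all controls in both genes and in *FADS2*, the delta-6 desaturase (log2 fold change −0.45), and none of the 3 passed. *FADS1* was called without ASO_LINC replicate 3 (log2 fold change −0.57, adjusted p = 0.00419, edgeR). *FADS1* and *FADS2* lie on opposite strands and share 5.57% and 5.11% of their exonic bases with other genes, including each other.

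*LPIN1*, lipin 1, a phosphatidate phosphatase of triglyceride synthesis, gave 21.3, 14.3 and 19.8 CPM in ASO_CTRL and 29.5, 34.7 and 28.5 CPM in ASO_LINC. Each knockdown library was above each control, in contrast to the desaturases, and the log2 fold change of 0.74 (SE 0.18, adjusted p = 0.0192, edgeR) missed the threshold. It was called without ASO_LINC replicate 3 (log2 fold change 0.78, adjusted p = 0.00517, edgeR).

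Elongases add carbon units to fatty acids, and long-chain acyl-CoA synthetases attach them to coenzyme A. The elongases gave log2 fold changes of 0.30 (*ELOVL1*), −0.33 (*ELOVL5*) and 0.06 (*ELOVL6*), and the synthetases 0.36 (*ACSL1*) and −0.31 (*ACSL3*). None of the 5 passed, and only *ELOVL1*, higher in every knockdown library, and *ACSL3*, lower in every one, had groups that did not overlap. *ELOVL1* rested on ASO_LINC replicate 3, which gave 253.5 CPM against 174 and 173 CPM in replicates 1 and 2 and 153.7 to 168.6 CPM in the controls. Without that replicate its log2 fold change was 0.10.

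Of the 16 sterol synthesis genes, 0 were called by edgeR. At an unadjusted p below 0.05 there were 7 of 16, against 32.4% of all tested genes. Limma-voom called 0, and DESeq2 called 1, *LSS*, lower, where over all genes limma-voom called 5.26% higher and 3.02% lower and DESeq2 6.57% and 4.32%. Without ASO_LINC replicate 3, edgeR called 5, with *LSS*, *TM7SF2*, *DHCR7* and *PMVK* lower and *SQLE* higher, in the fit where 7.81% of all genes were called lower and 9.42% higher. Of these 5 genes, all but *PMVK* act from squalene onward. *SQLE*, *LSS* and *TM7SF2* are given library by library as the uncalled sterol genes with the smallest p.

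*SQLE*, squalene epoxidase, a rate-controlling enzyme of the late pathway, gave 38.9, 31.8 and 40.35 CPM in ASO_CTRL and 67.5, 66.2 and 40.1 CPM in ASO_LINC. ASO_LINC replicates 1 and 2 lay above the controls and replicate 3 within them. The log2 fold change was 0.65 (SE 0.20, adjusted p = 0.0451, edgeR), and 0.84 without replicate 3 (adjusted p = 0.000485, edgeR).

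*LSS*, lanosterol synthase, the next enzyme of the pathway, gave 43.5, 42.7 and 38.3 CPM in ASO_CTRL and 25.4, 21.0 and 31.4 CPM in ASO_LINC. *TM7SF2*, a sterol C14 reductase, gave 29.2, 31.1 and 31.2 CPM in ASO_CTRL and 15.3, 17.3 and 25.5 CPM in ASO_LINC. In both genes every knockdown library was below every control and replicate 3 was the nearest to them. The log2 fold changes were −0.69 for *LSS* (SE 0.17, adjusted p = 0.0185, edgeR) and −0.68 for *TM7SF2* (SE 0.19, adjusted p = 0.0343, edgeR), and −0.83 and −0.91 without replicate 3.

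*DHCR7*, the last reductase on the way to cholesterol, was singled out after its values were seen. It gave 38.0, 37.2 and 38.9 CPM in ASO_CTRL and 13.2, 16.6 and 33.9 CPM in ASO_LINC. The controls were close together, and ASO_LINC replicate 3 lay far from the other knockdown libraries and near the controls. With a log2 fold change of −0.89 (SE 0.28, adjusted p = 0.0516, edgeR) the gene did not pass, and its value without that replicate was −1.36 on the log2 scale (adjusted p = 5.64e-05, edgeR).

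The other sterol genes, early and late in the pathway, gave smaller fitted changes than *SQLE*, *LSS*, *TM7SF2* and *DHCR7*. Those genes were shown above for their small p or after their values were seen. The contrast therefore follows from the choice and shows no pattern along the pathway. *HMGCS1* (HMG-CoA synthase) had a log2 fold change of −0.04, *ACAT2* (acetoacetyl-CoA thiolase) of −0.37, *MVK* (mevalonate kinase) of −0.27, *PMVK* (phosphomevalonate kinase) of −0.51 and *MVD* (mevalonate diphosphate decarboxylase) of 0.11. The libraries of *ACAT2* did not overlap, at 110.3 to 131.4 CPM in ASO_CTRL and 87.3 to 100.2 CPM in ASO_LINC. *MVD* was the least uniform, with 8.52, 6.16 and 21.7 CPM in ASO_LINC against 10.5 to 11.01 CPM in ASO_CTRL, and its log2 fold change turned from 0.11 to −0.53 without ASO_LINC replicate 3. *PMVK* gave 8.82, 9.58 and 15.4 CPM in ASO_LINC against 15.2 to 16.0 CPM in ASO_CTRL, and its value of −0.77 without replicate 3 passed (adjusted p = 0.00517, edgeR).

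*IDI1* (isopentenyl diphosphate isomerase) had a log2 fold change of −0.36 with groups that did not overlap, *FDPS* (farnesyl diphosphate synthase) of −0.01, and *FDFT1* (squalene synthase) of 0.00. Later sterol genes were *NSDHL* at −0.10, *HSD17B7* at −0.03 and *EBP* at −0.05, and the sterol carrier gene *STARD4* was at −0.20. None of these 7 passed. *FDPS* has 8 annotated pseudogenes, *IDI1* has 3 and *HSD17B7* has 2. Other genes share 37.7% of the exonic bases of *HMGCS1*, 36.4% of *EBP*, 22.2% of *ACAT2*, 18.6% of *FDPS* and 15% of *IDI1*. The counts of these genes are therefore uncertain where reads could be split or lost.

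The group was set up to compare genes of the SREBF1 type with genes of the SREBF2 type. The median log2 fold change was −0.31 over the 13 fatty acid genes, −0.15 over the 16 sterol genes and −0.51 over the 5 regulators, against −0.0027 over all tested genes. Values below 0 were found in 8 of the 13 fatty acid genes, 13 of the 16 sterol genes and 4 of the 5 regulators, and 2, 0 and 2 were called. The fatty acid genes spanned the wider range, from −1.81 to 0.74, against −0.89 to 0.65 for the sterol genes. No test of the difference between these lists was made, so the called genes of the fatty acid route do not show that it differed from the sterol route.

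Single libraries gave unlike pictures of the sterol genes. Their median log2 change relative to the control mean was −0.30, −0.31 and 0.01 in the knockdown libraries 1, 2 and 3. For the fatty acid genes the medians were −0.19, −0.19 and −0.27, and for the regulators −0.43, −0.48 and −0.59. In the summed CPM, the fatty acid genes gave 782, 750 and 787 in ASO_CTRL and 593, 634 and 680 in ASO_LINC, a sum to which *FASN* contributed the most in lost CPM. The sterol genes summed to 586, 576 and 596 CPM in ASO_CTRL and to 487, 490 and 576 CPM in ASO_LINC, so that replicate 3 reached the lower end of the controls.

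The deviation of ASO_LINC replicate 3 followed GC content among these genes as well. Replicate 3 minus the mean of replicates 1 and 2, in log2 CPM, had a Pearson r of 0.71 with the GC content of the longest transcript over the 34 genes, which share the same libraries. Of the 13 genes with a GC content of at least 55%, 12 were higher in replicate 3, with a median of 0.62, whereas 11 of the 21 genes below 55% were higher, with a median of 0.05. *FASN* (65.3% GC) was higher by 0.75 and *SREBF1* (63.2%) by 0.69, and *INSIG2* (36.3%) was at −0.48. *ACACA* (48.9%) was at −0.04. *MVD* at 1.54 and *DHCR7* at 1.18 deviated the most.

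**Figure D3:**
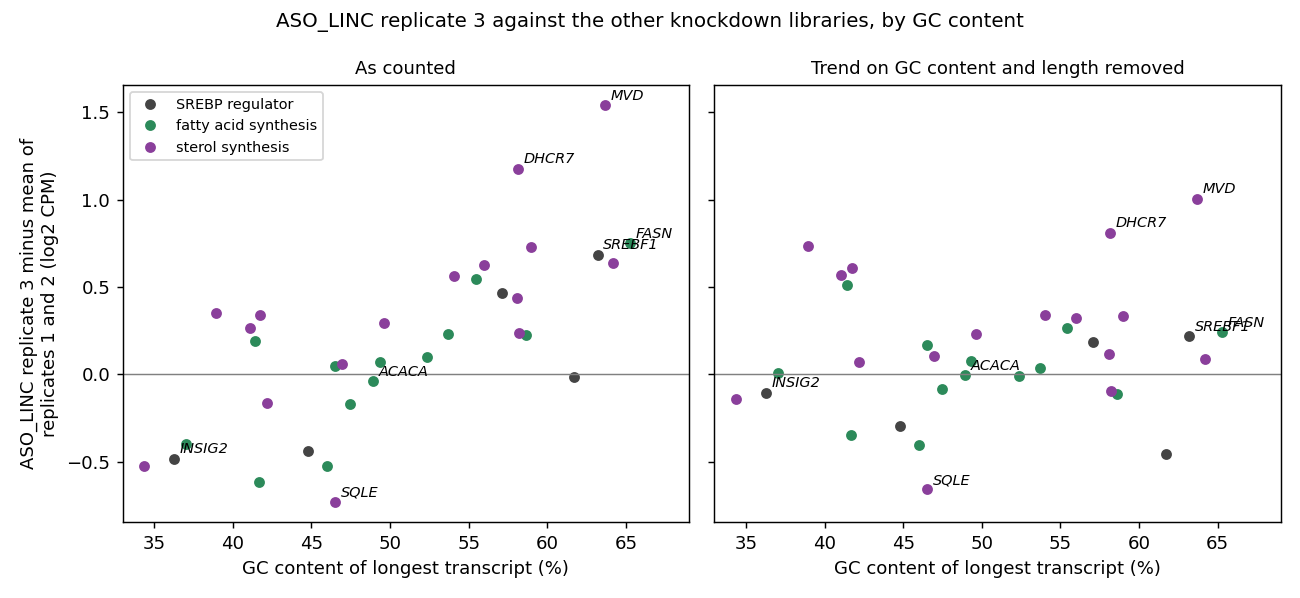
GC content of the longest transcript in percent (horizontal axes) against ASO_LINC replicate 3 minus the mean of replicates 1 and 2 in log2 CPM (vertical axes) for the 34 genes, as counted (left) and after removal of the dependence of each library on GC content and transcript length (right). Points are genes, coloured by role. Pearson's r is 0.71 on the left and 0.16 on the right, where *MVD* (1.01) and *DHCR7* (0.81) stay the highest.

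An alternative chosen after seeing the data removed the dependence of every library on GC content and transcript length, and edgeR then called 9 of the 34 genes. Over all 12786 genes of that fit, 7.79% were called higher and 5.21% lower. These were *SREBF1*, *FASN*, *ACACA*, *FADS1*, *LSS*, *TM7SF2* and *DHCR7*, all lower, and *INSIG2* and *LPIN1*, both higher. The per-library log2 changes of *SREBF1* then were −1.35, −1.40 and −1.16 in ASO_LINC replicates 1, 2 and 3, and those of *INSIG2* were 1.491, 1.710 and 1.496. The corrected log2 fold changes of the 4 genes called as counted were −1.31 for *SREBF1*, 1.61 for *INSIG2*, −1.77 for *FASN* and −0.92 for *ACACA*. Of the sterol genes, 3 were among the 9, with corrected values of −0.70 for *LSS* (adjusted p = 0.0018), −0.61 for *TM7SF2* (adjusted p = 0.0059) and −0.92 for *DHCR7* (adjusted p = 0.00581) in edgeR. The sterol medians per library still differed, at −0.36, −0.41 and 0.03 after the correction, while those of the fatty acid genes were −0.41, −0.27 and −0.37.

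Other genes of lipid metabolism were read from lists of related pathways. Of 17 other tested genes of sterol synthesis and uptake, 1 was called, *NPC1*, the lysosomal cholesterol exporter, which rose with a log2 fold change of 1.04, and the median of the list was −0.15. Of 14 genes of the branches that leave the mevalonate route, edgeR, DESeq2 and limma-voom each called 0, with 1 at an unadjusted p below 0.05 in edgeR.

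Among 17 other tested genes of fatty acid synthesis and elongation, the elongase *ELOVL7* rose (log2 fold change 0.80) and *HACD1*, a dehydratase of the elongation cycle listed as *PTPLA*, fell (−0.95). Glycerolipid and lipid droplet genes had a median of 0.33 over 11 tested genes, of which *HILPDA*, a lipid droplet protein that inhibits lipolysis, rose (1.98) and *MGLL*, monoacylglycerol lipase, rose (1.04). In *HILPDA* the libraries gave 14.3, 15.3 and 12.5 CPM in ASO_CTRL and 46.4, 56.8 and 62.9 CPM in ASO_LINC, so the groups were far apart. Of 18 genes of fatty acid oxidation, *PPARD*, a nuclear receptor for fatty acids (1.29), *CPT1A*, which admits fatty acids to mitochondria (1.01), and *ACAA2*, a thiolase of beta-oxidation (0.99), rose, while the median of the list was −0.01. Of 9 LXR target and sterol efflux genes, edgeR called 0, with 2 at an unadjusted p below 0.05, and DESeq2 and limma-voom each called 1, lower. *LPCAT3*, an acyltransferase of phospholipids named here after its values were seen, had a log2 fold change of −1.14 (adjusted p = 0.0178, edgeR).

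Without ASO_LINC replicate 3, the numbers called higher and lower became 2 and 1 for the other sterol genes, 1 and 2 for the other fatty acid genes, 0 and 1 for the mevalonate branches, 0 and 1 for the LXR targets, 2 and 0 for the glycerolipid genes and 4 and 1 for fatty acid oxidation. In that fit the shares over all genes were 9.42% higher and 7.81% lower, and for the counts with all libraries they were 4.91% and 2.63%.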

How the data were processed

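RNA-seq of H226 cells compared 3 ASO_LINC with 3 ASO_CTRL libraries, grouped by their labels. The authors aligned single-end reads to hg19 with STAR and deposited raw counts per gene name, without normalization. The counting tool, annotation and strand setting are not given in the sources used here. The 4 totals of unassigned reads (24.8% to 28.1% of each library) were left out. No columns of other samples were used (0 present). The labels do not say that the libraries were separate cultures, so p-values measure the spread between these libraries. Counts of libraries of a group differed by more than sampling noise. The chi-square per degree of freedom was 2.50 for ASO_LINC replicates 1 and 2 and 6.94 to 14.0 for the other pairs. Technical differences can add to this value, so it does not show that the libraries were independent. Each library was counted as 1 replicate by its label.

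In R 4.3.3, edgeR 4.0.16 was run with filterByExpr (14660 genes), TMM scaling and the quasi-likelihood F-test, without a replicate block. P-values were adjusted by Benjamini-Hochberg over all tested genes, and a call required an adjusted p below 0.01 and a log2 fold change beyond 0.5. The common biological coefficient of variation was 0.159. Changes of single libraries used log2 CPM (prior count 2), from which the control mean was subtracted. Genes were named by a rule: all members, with library values for called members, for regulators and for the 3 next genes by p in each route, and of other lists the called genes, at most 4 each. Outside this rule, library values were also given for *ELOVL1*, *ACAT2*, *MVD*, *PMVK*, *DHCR7*, *HILPDA* and some markers, and *LPCAT3* was named. These were picked with their values known. Single values of some listed genes are not reported here. The members, lists and rule were chosen with earlier results of these data known.

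Positions, GC content and transcript length came from GENCODE lifted to GRCh37, matching 13370 of 17222 names directly and 973 by an older symbol, and 87.2% of tested genes had a GC content. Promoters were from RefSeq (GRCh38.p14). The correction removed spline trends (5 degrees of freedom) through offsets. Alternatives included DESeq2 1.42.0, limma-voom 3.58.1, other scalings and filters, robust dispersion, a replicate block and leaving out each library. Tested on simulated data for this comparison (14430 genes), 66 of 96 genes changed by a log2 of 1 and 94 of 97 changed by 2 were called, and 0 of 14237 unchanged genes. The simulated counts used the dispersion trend and held no GC-dependent shift of ASO_LINC replicate 3. They therefore do not measure false calls in the real libraries.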

Additional observations from a re-analysis of the deposited data

How the results depend on the processing

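The calls of *SREBF1*, *FASN*, *ACACA* and *INSIG2*, and no others among the 34 genes, were obtained with DESeq2 size factors, library size only, limma-voom, no filter, at least 10 counts in every library and robust dispersion. DESeq2's Wald test called 7 of the 34 (4 fatty acid and 1 sterol gene), an adjusted p below 0.05 called 10 (4 and 3), and the correction for GC content and transcript length, chosen after seeing the data, called 9 (4 and 3), or 7 with the replicate block added (2 sterol genes). Leaving out 1 library gave from 2 (without ASO_LINC replicate 1) to 11 (without ASO_LINC replicate 3) of the 34, from 1 to 4 fatty acid genes and from 0 to 5 sterol genes. Over all genes, 1106 were called, 656 with the replicate block, 2465 at an adjusted p below 0.05, 1662 of 12786 after the GC correction, and from 359 (without ASO_CTRL replicate 3) to 2616 (without ASO_LINC replicate 3) when 1 library was left out. For these changes the cause was not tested.

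The correlations of the deviations of same-numbered libraries were 0.059, −0.149 and −0.180, which gave no sign of pairing. With 3 libraries per group, they cannot show whether a number marks a shared day or culture. With the number as a block, 3 of the 34 genes were called, with 1 fatty acid gene, *FASN*, and *ACACA* at an adjusted p of 0.0108 (edgeR, log2 fold change −0.91).

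The fatty acid median was −0.386 after the GC correction, −0.415 with the block added, and from −0.372 to −0.195 with 1 library left out. The sterol median ranged from −0.288 to −0.0911 with 1 library left out. Values near 0 changed sign: *FDPS* to 0.00615 with library size only, 0.00417 after the GC correction and 0.00320 with the block added, *EBP* to 0.0132 and 0.0134 in these corrected fits, *MVD* to −0.12 with limma-voom and *FDFT1* to −0.00334 with at least 10 counts in every library. With 1 library left out, the log2 fold changes ranged from −0.24 to 0.12 for *FDPS*, −0.53 to 0.44 for *MVD*, −0.0337 to 0.0633 for *FDFT1*, −0.26 to 0.0499 for *EBP*, −0.15 to 0.0651 for *HMGCS1*, −0.20 to 0.0812 for *NSDHL* and −0.18 to 0.20 for *HSD17B7*. The 3686828 reads of ASO_LINC replicate 3 make its values the least precise.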
